A study of Mus musculus with 12 samples.

Results

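The 6 chemokine receptor genes *Ccr1*, *Ccr2*, *Cxcr2*, *Cxcr4*, *Cx3cr1* and *Ackr3* were taken from the expression table by their symbols, and each had a row among the 18180 genes measured. They were described in EGFR+ cells sorted from 3 mouse glioblastomas, T3, T4 and T5, into Gal1-, PDGFR+, PDGFR- and Gal1+ populations, with 3 libraries per population and 12 in all. The sorts were made with antibodies to Galectin-1, which *Lgals1* encodes, and to PDGFR. Every tumor arose in mice carrying conditional human EGFR with loss of *Cdkn2a*, induced in the brain by a lentivirus that expresses TGFa and Cre recombinase. The animals also carried a conditional luciferase reporter on a mixed background of the C57Bl/6J, 129S4, FVBN/J and Balb/cJ strains in the labels, with SJL added in the methods, no age was given in the labels, and no population came from normal brain. All 4 populations of a tumor share these alleles, and Cre came from the virus and not from a transgene of the mouse.

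Chemokine receptors are seven-transmembrane proteins through which leukocytes follow gradients of small secreted proteins, the chemokines, into and within tissues. Most couple to Gi proteins, whereas the atypical receptor encoded by *Ackr3* binds *Cxcl12* protein, scavenges it and signals mainly through arrestins. In brain and brain tumors *Cx3cr1* is best known from microglia and *Ccr2* from monocytes that enter from the blood. *Ccr1* is found on monocytes, macrophages and neutrophils, *Cxcr2* mainly on neutrophils, and *Cxcr4* on many leukocytes and also on neural progenitors, endothelial cells and glioma cells.

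The promoters of 4 receptors are shown because of how these genes moved between the populations: *Cx3cr1* had the widest range over the 12 libraries, *Ackr3* the narrowest, and *Ccr1* and *Cxcr4* followed each other most closely. They were chosen after their values were seen. Each run is the 250 bases before the RefSeq start of the gene, 5′ to 3′ on the gene's own strand, in the GRCm38.p6 build, which is older than the mm39 build used for the reads. Capitals mark matches to GAGGAA (the core bound by PU.1, a myeloid transcription factor), ACGTG (the core of the hypoxia response element), GGGCGG (the GC box) and TATAAA (the TATA box), each searched on both strands. The *Ccr1* promoter lies at chr9:123968693-123968942 on the minus strand, that of *Cxcr4* at chr1:128592300-128592549 on the minus strand, that of *Cx3cr1* at chr9:120068297-120068546 on the minus strand and that of *Ackr3* at chr1:90203730-90203979 on the plus strand.
Ccr1: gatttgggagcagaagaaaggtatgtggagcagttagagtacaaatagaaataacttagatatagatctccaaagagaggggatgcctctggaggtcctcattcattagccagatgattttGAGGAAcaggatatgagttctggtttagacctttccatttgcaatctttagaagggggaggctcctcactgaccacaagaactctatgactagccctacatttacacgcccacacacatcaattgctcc
Cxcr4: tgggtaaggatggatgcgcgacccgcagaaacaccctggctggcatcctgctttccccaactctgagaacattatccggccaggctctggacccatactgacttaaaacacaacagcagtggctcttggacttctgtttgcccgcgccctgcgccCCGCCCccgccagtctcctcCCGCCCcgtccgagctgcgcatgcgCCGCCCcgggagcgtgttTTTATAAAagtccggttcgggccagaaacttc
Cx3cr1: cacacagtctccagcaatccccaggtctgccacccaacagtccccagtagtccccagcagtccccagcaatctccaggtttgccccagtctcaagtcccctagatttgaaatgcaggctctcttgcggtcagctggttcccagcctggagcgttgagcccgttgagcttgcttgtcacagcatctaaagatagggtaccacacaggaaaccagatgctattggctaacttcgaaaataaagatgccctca
Ackr3: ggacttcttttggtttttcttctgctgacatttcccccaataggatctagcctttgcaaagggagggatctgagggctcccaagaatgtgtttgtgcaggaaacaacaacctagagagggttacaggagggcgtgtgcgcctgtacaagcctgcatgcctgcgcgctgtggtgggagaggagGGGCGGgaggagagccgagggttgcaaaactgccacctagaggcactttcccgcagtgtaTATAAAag
GAGGAA stood once in the *Ccr1* promoter, 129 bases before the start, and once in that of *Cxcr2*, 81 bases before it. The *Cxcr4* promoter held 3 GC boxes, 95, 75 and 50 bases before its start, and overlapping TATA matches on the opposite strands, 30 and 32 bases before it. The *Ackr3* promoter held a GC box at 68 and a TATA match at 8 bases before its start. No match to these 4 motifs stood in the windows of *Ccr2* and *Cx3cr1*, and none of the 6 windows held ACGTG. Of 32851 mouse promoters with the same window, 23.25% held GAGGAA, 16.57% ACGTG, 32.74% GGGCGG and 12.37% TATAAA. These matches describe letters and were not tested for binding. *Ccr1*, *Ccr2* and *Cx3cr1* lie on chromosome 9, and *Cxcr2*, *Cxcr4* and *Ackr3* on chromosome 1.

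The values are log2 CPM, reads counted on a gene relative to the size of its library on a log2 scale and normalised between libraries by TMM, with 9851175 to 24117541 reads per library recovered from them. A count of 3 reads, taken as the limit of detection for counting error, lay between a log2 CPM of −2.99 and −1.44, and every receptor exceeded it in every library. *Cxcr2* was the most thinly covered, with 17.6 to 106.7 reads per library, *Ackr3* had 27.0 to 128.0 and *Ccr2* 22.0 to 560.5. *Ccr1*, *Cxcr4* and *Cx3cr1* each had at least 103.0 reads. Reads that mapped to several places were counted in fractions, and fractional counts stood in the rows of all the receptors but *Ackr3*, most often in that of *Cxcr2*, so reads shared with related sequence could have been divided. Differences below are log2 fold changes from limma's moderated test on all 18180 genes with the tumor as a block, and a gene was called when its p, adjusted by Benjamini-Hochberg over all of them, was under 0.05. The comparisons share libraries, since each population enters several of them. With the tumor as a block, the p-values measure how far differences between populations varied among these 3 tumors. They leave out differences in level between tumors, and the spread was moderated over all genes.

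As a check of the sort, Gal1+ exceeded Gal1- cells in *Lgals1* by 1.29 on the log2 scale (adjusted p = 0.000967), while *Pdgfra* in PDGFR+ over PDGFR- cells had a log2 fold change of 1.60 that was not called (adjusted p = 0.249). In the Gal1 sort *Pdgfra* went the other way, with −2.97 in Gal1+ over Gal1- cells (adjusted p = 0.000258). *Ptprc* encodes CD45, the surface protein of leukocytes, which the study's results describe the sorted cells as lacking. Its methods paragraph on this sort names antibodies to EGFR, PDGFR and Galectin-1 and none to CD45. The log2 CPM of *Ptprc* was 4.60 ± 0.79 (SD, n = 3) in Gal1-, 6.92 ± 0.70 in PDGFR+, 7.46 ± 1.06 in PDGFR- and 8.65 ± 0.40 in Gal1+ cells. Thus *Ptprc* transcripts were present in all 12 libraries, in the same order of populations as the transcripts of several of the receptors. In sorted bulk samples, a smaller number of cells of a type and less RNA per cell cannot be told apart.

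All 6 receptor transcripts rose in Gal1+ over Gal1- cells, from 2.03-fold for *Ackr3* to 43.5-fold for *Cx3cr1*, and each was higher in 3 of 3 tumors. Over all genes, 28.9% were called higher and 29.3% lower in this comparison, so a call alone was common, and the median log2 fold change was 3.89 for the 6 receptors and −0.03 for all genes. The sort by PDGFR called none of the 6, nor any other gene. PDGFR+ and PDGFR- cells held each of the 6 at mean levels between those of Gal1- and Gal1+ cells.

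**Figure D1:**
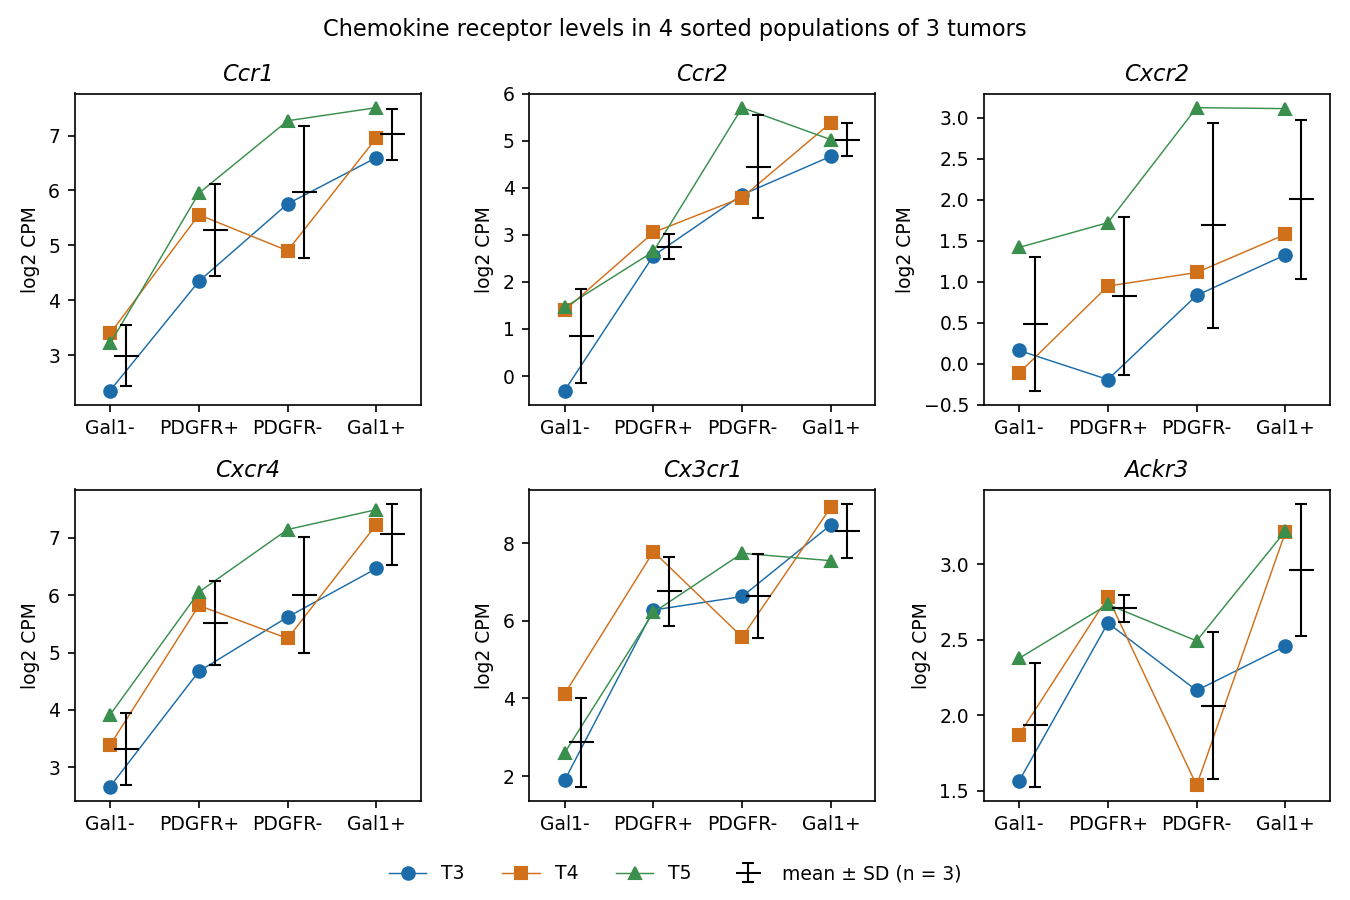
Log2 CPM (vertical axis, scaled separately in each panel) of the 6 receptors in the 4 sorted populations (horizontal axis), with a symbol and a thin line for each tumor and black bars for the mean ± SD of 3 tumors. Gal1- libraries lie lowest and Gal1+ libraries highest on average in every panel, and T5 PDGFR- cells (green triangle) reach 7.27 for *Ccr1*, beside 7.51 in T5 Gal1+ cells.

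*Ccr1* encodes a receptor for inflammatory CC chemokines such as Ccl3, Ccl5, Ccl6, Ccl7 and Ccl9. Its log2 CPM in T3, T4 and T5 was 2.36, 3.40 and 3.21 in Gal1- cells, 4.35, 5.56 and 5.95 in PDGFR+ cells, 5.76, 4.90 and 7.27 in PDGFR- cells, and 6.60, 6.96 and 7.51 in Gal1+ cells. The Gal1- libraries lay below all others, and the Gal1+ libraries lay above all PDGFR+ libraries but overlapped with PDGFR-, where T5 was high. Gal1+ exceeded Gal1- cells by a log2 fold change of 4.03 (SE, the standard error, 0.41, adjusted p = 5.83e-05), which is 16.4-fold. PDGFR+ cells stood 3.33-fold below Gal1+ cells (log2 fold change −1.74, adjusted p = 0.0104) and 4.91-fold above Gal1- cells (2.30, adjusted p = 0.00697). PDGFR- cells stood 7.93-fold above Gal1- cells (2.99, adjusted p = 0.0013). The neighbours in this order that did not differ beyond the threshold were PDGFR+ and PDGFR- cells, with a log2 difference of −0.69 (95% interval −1.61 to 0.22), and PDGFR- and Gal1+ cells (−1.05, interval −1.96 to −0.13, adjusted p = 0.0963).

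*Ccr2* encodes the receptor for Ccl2, Ccl7 and Ccl12, through which monocytes leave the bone marrow. In T3, T4 and T5 its log2 CPM was −0.31, 1.40 and 1.46 in Gal1- cells, 2.56, 3.05 and 2.65 in PDGFR+ cells, 3.85, 3.79 and 5.71 in PDGFR- cells, and 4.67, 5.39 and 5.02 in Gal1+ cells. Only PDGFR- and Gal1+ libraries overlapped, because T5 PDGFR- cells were the highest of all 12 libraries. The rise from Gal1- to Gal1+ cells was 18.1-fold (log2 fold change 4.18, SE 0.44, adjusted p = 7.21e-05). PDGFR+ fell below Gal1+ cells by 4.84-fold (−2.27, adjusted p = 0.00489) and exceeded Gal1- cells by 3.74-fold (1.90, adjusted p = 0.0266). *Ccr2* had the largest PDGFR sort difference of the 6 by size, −1.70 (SE 0.44), and its PDGFR+ libraries lay below its PDGFR- libraries in each tumor and as groups. That difference had an unadjusted p of 0.00367 and was not called (adjusted p = 0.254).

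*Cxcr2* encodes the receptor that draws neutrophils toward Cxcl1, Cxcl2 and Cxcl3. Its log2 CPM was 0.16, −0.11 and 1.42 in Gal1- cells of T3, T4 and T5, −0.19, 0.95 and 1.72 in PDGFR+ cells, 0.83, 1.11 and 3.12 in PDGFR- cells, and 1.33, 1.58 and 3.11 in Gal1+ cells. T5 was the highest tumor in every population, and the libraries of all 4 populations overlapped when tumors were pooled. Within each tumor Gal1+ exceeded Gal1- cells, by 1.17, 1.69 and 1.69 in log2 CPM for T3, T4 and T5. The fitted difference was 1.52 (SE 0.30, adjusted p = 0.00216), and without the tumor block it was not called (adjusted p = 0.113, with 0.0011 to 0.113 over all alternatives). PDGFR+ fell below Gal1+ cells (−1.18, adjusted p = 0.0154) and PDGFR- exceeded Gal1- cells (1.20, adjusted p = 0.0221). Without the block these had adjusted p = 0.268 and 0.328, the highest among their alternatives, which reached down to 0.00807 and 0.0107. PDGFR+ over Gal1- cells had a log2 fold change of 0.34 (95% interval −0.35 to 1.02) that turned to −0.03 when T4 was left out.

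*Cxcr4* encodes the signalling receptor for Cxcl12. Its log2 CPM was 2.67, 3.39 and 3.92 in Gal1- cells of T3, T4 and T5, 4.67, 5.82 and 6.05 in PDGFR+ cells, 5.62, 5.25 and 7.14 in PDGFR- cells, and 6.46, 7.23 and 7.49 in Gal1+ cells. Gal1- libraries lay below all others and Gal1+ above PDGFR+, and the PDGFR- libraries overlapped with PDGFR+ and with Gal1+. The 13.3-fold rise in Gal1+ over Gal1- cells was nearly the same size in each tumor, with log2 differences of 3.80, 3.84 and 3.57 (fit 3.74, SE 0.29, adjusted p = 3.93e-05). PDGFR+ cells fell 2.92-fold below Gal1+ cells (−1.55, adjusted p = 0.00428) and PDGFR- cells 2.08-fold (−1.06, adjusted p = 0.0345). Against Gal1- cells, PDGFR+ rose 4.57-fold (adjusted p = 0.00235) and PDGFR- 6.40-fold (adjusted p = 0.000741). The PDGFR sort left a log2 difference of −0.49 (95% interval −1.14 to 0.17).

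*Cx3cr1* encodes the fractalkine receptor, a hallmark of microglia that is also found on monocytes and macrophages. In T3, T4 and T5 its log2 CPM was 1.89, 4.12 and 2.60 in Gal1- cells, 6.28, 7.78 and 6.21 in PDGFR+ cells, 6.62, 5.58 and 7.73 in PDGFR- cells, and 8.47, 8.92 and 7.55 in Gal1+ cells. Its Gal1- libraries again lay below all others, while T5 PDGFR- and T4 PDGFR+ cells reached into the range of Gal1+ cells. Gal1+ exceeded Gal1- cells 43.5-fold (log2 fold change 5.44, SE 0.66, adjusted p = 0.000133), the largest rise of the 6, with 6.58 in T3, 4.80 in T4 and 4.95 in T5. PDGFR+ and PDGFR- cells exceeded Gal1- cells by 3.88 (adjusted p = 0.00569) and 3.78 (adjusted p = 0.00399) on the log2 scale. Neither differed from Gal1+ cells past the threshold, with log2 differences of −1.56 (adjusted p = 0.0904) and −1.67 (adjusted p = 0.101). PDGFR+ minus PDGFR- differed in sign between tumors, being −0.35 in T3, 2.20 in T4 and −1.52 in T5, around a fitted 0.11 (95% interval −1.38 to 1.60) that turned to −0.94 without T4.

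*Ackr3* encodes the atypical receptor for Cxcl12 and Cxcl11. Its log2 CPM was 1.57, 1.87 and 2.38 in Gal1- cells of T3, T4 and T5, 2.61, 2.78 and 2.73 in PDGFR+ cells, 2.16, 1.54 and 2.49 in PDGFR- cells, and 2.46, 3.21 and 3.22 in Gal1+ cells. These levels covered only 1.68 log2 units over the 12 libraries, compared with 7.03 for *Cx3cr1*. Gal1+ libraries lay just above Gal1- libraries, and the rise was 2.03-fold (log2 fold change 1.02, SE 0.26, adjusted p = 0.00772). PDGFR+ cells were even between tumors and lay above the PDGFR- libraries in each tumor, with a log2 difference of 0.64 that was not called (unadjusted p = 0.0345, adjusted p = 0.392). PDGFR- fell below Gal1+ cells by 0.90 on the log2 scale (adjusted p = 0.0401). PDGFR- and Gal1- cells did not differ past the threshold (0.13, 95% interval −0.46 to 0.71), and the sign of that value turned to −0.11 when T3 was left out.

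**Figure D2:**
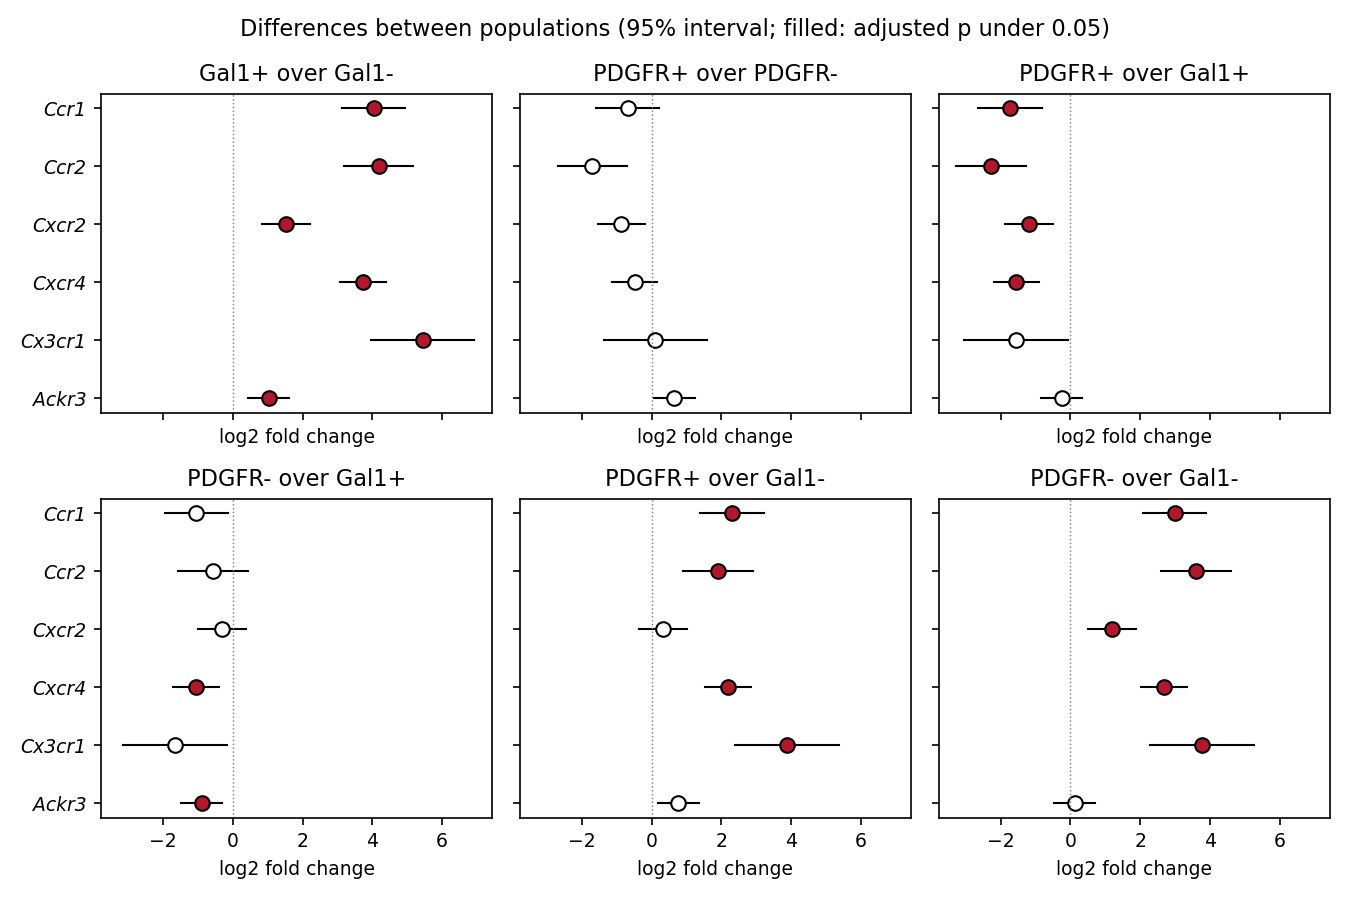
Log2 fold change (horizontal axis) of each receptor (vertical axis) in 6 comparisons of populations, with its 95% interval before adjustment. Filled circles passed an adjusted p of 0.05: all 6 receptors in Gal1+ over Gal1-, and none in PDGFR+ over PDGFR-.

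Across the comparisons between the sorts, 4 receptors fell in PDGFR+ compared with Gal1+ cells (*Ccr1*, *Ccr2*, *Cxcr2* and *Cxcr4*), where 17.0% of all genes were called lower. *Cxcr4* and *Ackr3* fell in PDGFR- compared with Gal1+ cells, where 6.91% of all genes were called lower. Compared with Gal1- cells, 4 receptors rose in PDGFR+ cells (*Ccr1*, *Ccr2*, *Cxcr4* and *Cx3cr1*; 8.26% of all genes) and 5 in PDGFR- cells (all but *Ackr3*; 16.2% of all genes). These counts, like those over all genes, rested on single tumors in part. Without T3, no receptor was called in PDGFR+ over Gal1+ or PDGFR+ over Gal1- cells and 3 in PDGFR- over Gal1- cells. Over all 18180 genes, these fits called 2110, 0 and 1698, in that order, beside 6900, 1504 and 4200 with all tumors. In PDGFR- over Gal1+ cells no receptor was called without T3 or without T4. Over all genes, 788 and 0 were called there, beside 3652 with all tumors. Leaving out the PDGFR- library of T5 raised the receptor count from 2 to 4 and that of all genes to 5837. In that fit *Ccr1* was at −1.46 (adjusted p = 0.0242) and *Cx3cr1* at −2.47 (adjusted p = 0.0136) on the log2 scale. Other alternatives to the fit without that library gave adjusted p up to 0.293 and 0.326. That library had receptor levels like those of Gal1+ cells except for *Ackr3*. *Ackr3* was at a log2 CPM of 2.49 there, beside 3.22 in Gal1+ and 2.38 in Gal1- cells of T5. The omission of that library was chosen after seeing the data.

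The sort by PDGFR was compared with the sort by Gal1 tumor by tumor. Of the 6 receptors, 0 of 6 were called in PDGFR+ over PDGFR- cells, where 0% of all genes passed limma's test and 2137 of 18180 had an unadjusted p under 0.05. *Ccr2*, *Cxcr2* and *Ackr3* were among the latter. In T4, *Ccr1*, *Cxcr4* and *Cx3cr1* were higher in PDGFR+ cells, by 0.65, 0.57 and 2.20 in log2 CPM, whereas in T3 and T5 they were lower. *Ptprc* did the same, at 0.68 in T4, −0.97 in T3 and −1.35 in T5. The positive-minus-negative difference of the Gal1 sort exceeded that of the PDGFR sort for 5 receptors, where 26.2% of all genes passed that test with a higher value. By size these differences of differences were 5.88 for *Ccr2* (adjusted p = 0.000275), 5.33 for *Cx3cr1* (0.00138 adjusted), 4.72 for *Ccr1* (0.000342 adjusted), 4.22 for *Cxcr4* (0.000274 adjusted) and 2.38 for *Cxcr2* (0.0016 adjusted). For *Ackr3* it was 0.38 (95% interval −0.45 to 1.21, adjusted p = 0.412).

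**Figure D3:**
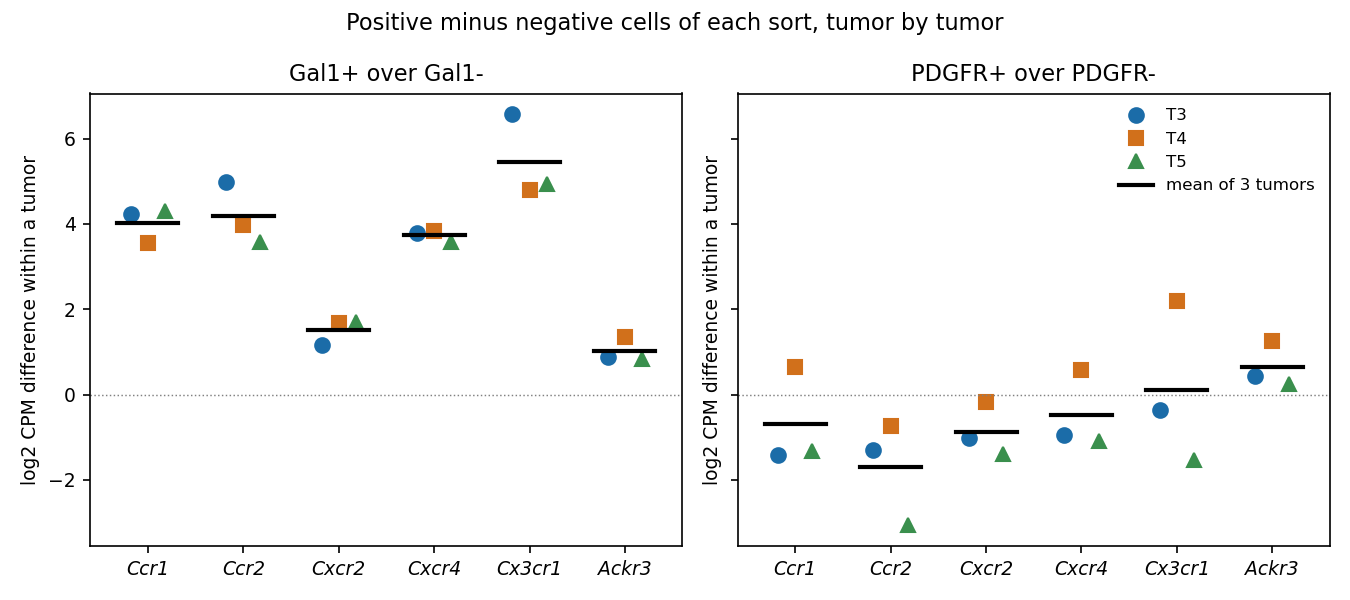
Difference in log2 CPM between positive and negative cells of the same tumor (vertical axis) for each receptor, in the Gal1 sort (left) and the PDGFR sort (right), with a symbol per tumor and a bar for the mean of 3 tumors. Every Gal1 sort value lies above 0, from 0.84 to 6.58, while PDGFR sort values lie on either side of 0, from −3.06 to 2.20.

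Levels of different receptors were compared per kilobase of exon, with exon lengths from the GENCODE M21 annotation, which is not the UCSC annotation the reads were counted on. In Gal1+ cells the mean CPM per kilobase was 77.0 ± 25.8 (SD, n = 3) for *Cxcr4* and 75.9 ± 33.2 for *Cx3cr1*, which do not differ beyond that spread, followed by 47.4 ± 15.4 for *Ccr1*. *Ccr2* at 4.92 ± 1.21, *Ackr3* at 2.40 ± 0.66 and *Cxcr2* at 1.545 ± 1.12 were far lower. In Gal1- cells *Cxcr4* made up 45.9% of the summed CPM per kilobase of the 6 receptors on average (38.3% to 52.8% over 3 tumors), *Ccr1* 23.1% (20.7% to 24.5%) and *Cx3cr1* 15.0% (8.51% to 25.4%). In Gal1+ cells *Cx3cr1* made up 36.7% (19.3% to 46.8%), beside 36.4% for *Cxcr4* (29.1% to 46.1%) and 22.7% for *Ccr1* (17.9% to 29.8%). The share of *Ackr3* was 9.60% in Gal1- cells (7.22% to 11.8%), 2.99% in PDGFR+, 1.54% in PDGFR- and 1.13% in Gal1+ cells (0.977% to 1.29%). *Cxcr2* went from 4.14% in Gal1- to 0.735% in Gal1+ cells. Thus the receptor transcripts of Gal1- cells, few as they were, held larger shares of *Ackr3* and *Cxcr2*, while the share of *Ccr1* stayed between 16.5% and 29.8% in every library.

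**Figure D4:**
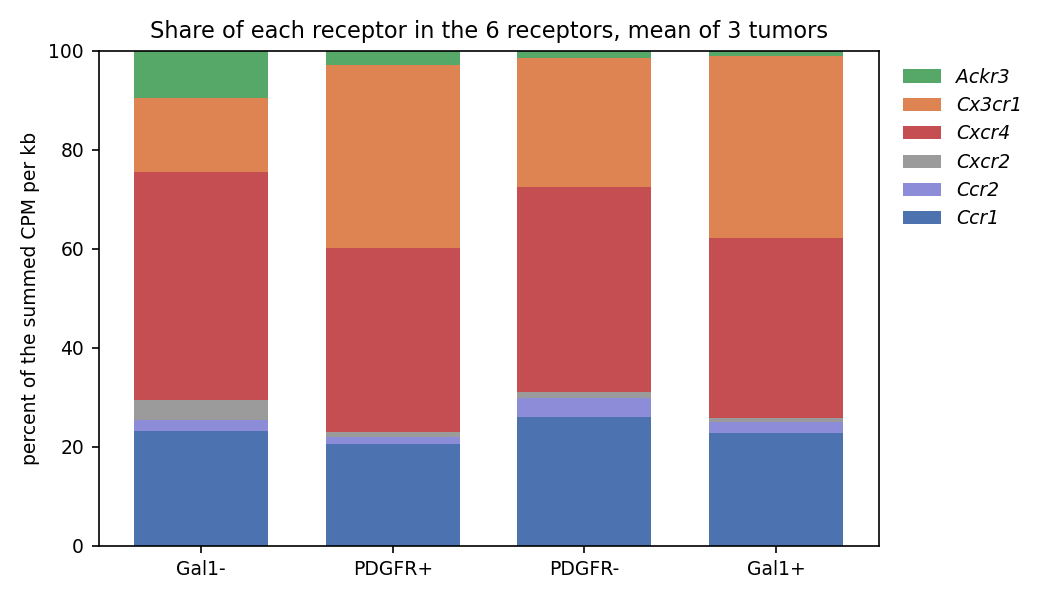
Share of each receptor in the summed CPM per kilobase of the 6 (vertical axis, percent, mean of 3 tumors) in each population. *Cxcr4*, *Cx3cr1* and *Ccr1* fill most of every bar, and *Ackr3* (green, top) narrows from 9.60% in Gal1- to 1.13% in Gal1+ cells.

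Transcripts of leukocytes moved with the receptors. All 12 pan-leukocyte genes, among them *Ptprc*, *Cd52*, *Coro1a* and *Tyrobp*, were called higher in Gal1+ than in Gal1- cells, and all 12 were called lower in PDGFR+ than in Gal1+ cells. Their summed CPM was 86.5 to 232.1 in Gal1- libraries, 723.5 to 1746 in PDGFR+, 760.7 to 3468 in PDGFR- and 3232 to 4562 in Gal1+ libraries. None of the 12 was at 0 in a population. The part of leukocytes in the receptor differences was not tested. Set against the mean log2 CPM of these 12 genes in the same library, *Ccr1* varied least, with an SD of 0.36 over the 12 libraries, followed by 0.48 for *Cxcr4*, 0.67 for *Cx3cr1* and 0.69 for *Ccr2*. *Cxcr2* and *Ackr3* varied more, with 1.42 and 1.56. Relative to these genes *Ackr3* was highest in Gal1- cells (−1.29 ± 0.54, SD, n = 3) and lowest in Gal1+ cells (−4.97 ± 0.28), whereas in log2 CPM it was lowest in Gal1- and highest in Gal1+ cells, and *Cxcr2* went from −2.74 ± 0.99 to −5.93 ± 0.76.

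**Figure D5:**
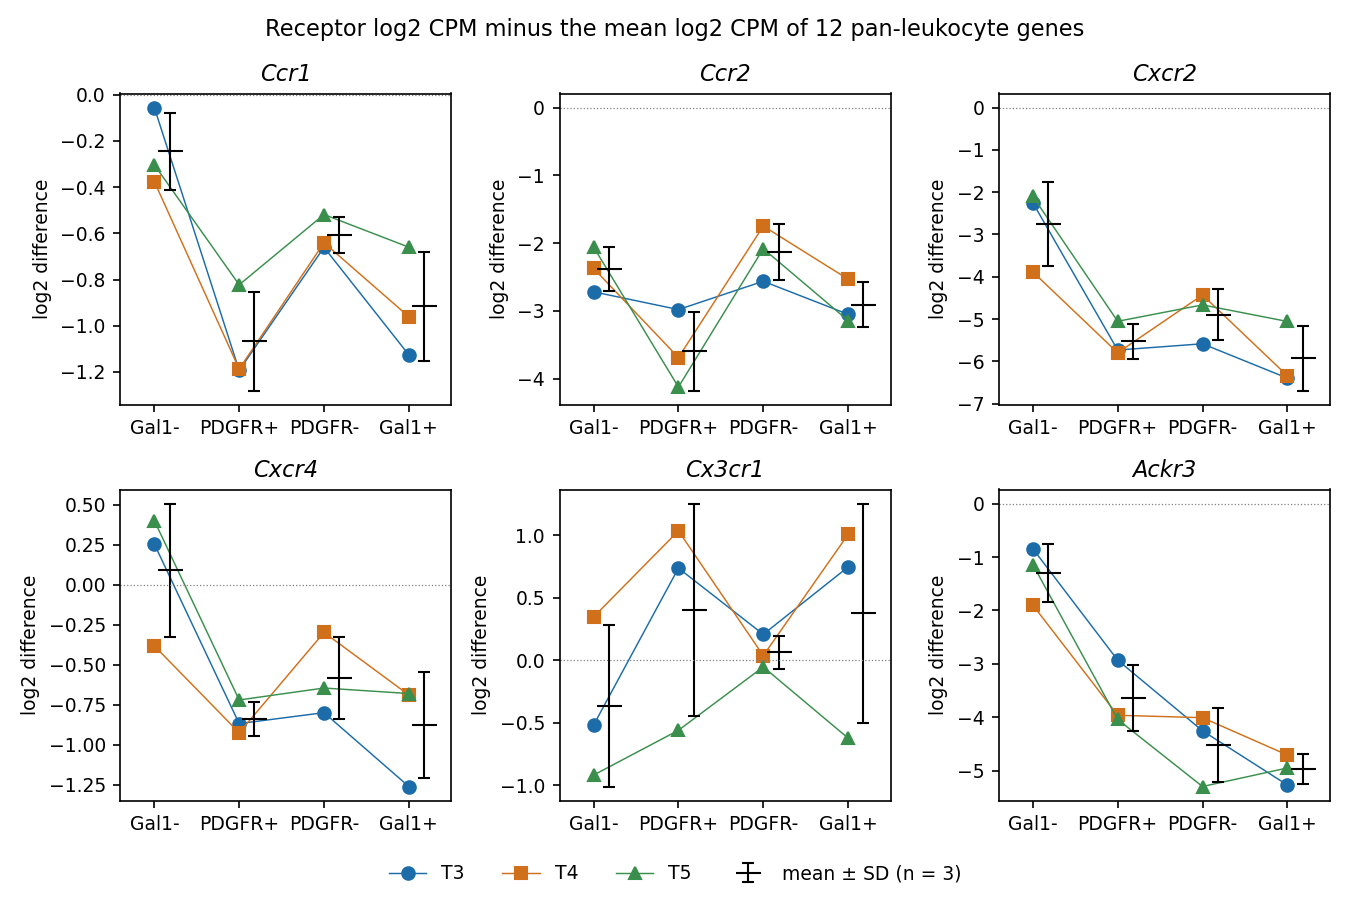
Log2 CPM of each receptor minus the mean log2 CPM of 12 pan-leukocyte genes in the same library (vertical axis, scaled separately in each panel) in the 4 populations, with a symbol per tumor and black bars for the mean ± SD. *Ccr1* and *Cxcr4* stay within 1.14 and 1.66 log2 units over the 12 libraries, whereas *Cxcr2* and *Ackr3* span 4.30 and 4.45.

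Markers of single leukocyte types moved unequally. All 8 microglia genes were called higher in Gal1+ than in Gal1- cells, among them *Tmem119* at 4.52 and *P2ry12* at 4.38 on the log2 scale, and their summed CPM rose from 78.9 to 134.9 in Gal1- to 1451 to 2032 in Gal1+ libraries. Of 10 monocyte and macrophage genes (*Ccr2* left out), 9 were called higher. *Vcan*, a proteoglycan gene that oligodendrocyte progenitors also express, was called lower (−1.94) and supplied most of the summed CPM in Gal1- cells, which was 623.5 to 843.3 beside 2192 to 2732 in Gal1+ cells. Without *Vcan*, left out after its values were seen, the sums were 25.0 to 87.2 and 2046 to 2587. For neutrophils, the cells *Cxcr2* is best known from, *Ly6g*, *Retnlg* and *Camp* were looked up but had no row. Beside 28.9% of all genes, 3 of the 7 other neutrophil genes were called higher. These were *Csf3r*, the receptor of granulocyte colony-stimulating factor, at 3.84, and the proteases *Mmp8* at 3.07 and *Mmp9* at 1.79. *Mmp8* had 13, 2 and 22 reads in Gal1- cells of T3, T4 and T5, so its T4 value there lay below the limit of 3 reads. The calprotectin genes *S100a8* and *S100a9* had log2 fold changes of −0.03 (adjusted p = 0.933) and 0.31 (adjusted p = 0.423). *Lcn2* and *Ltf* were not called either, with mean log2 CPM of 2.64 and 0.16 in Gal1- and 2.59 and 0.74 in Gal1+ cells. The neutrophil list summed to 29.6 to 59.6 CPM in Gal1- and 134.3 to 234.4 CPM in Gal1+ libraries. Most of the Gal1+ sums came from *Csf3r*, whose mean CPM was 9.27 in Gal1- and 127.1 in Gal1+ cells.

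Of the T and NK cell genes, 2 of 10 were called higher and 1 lower, with summed CPM of 12.4 to 35.5 in Gal1- and 31.9 to 51.8 in Gal1+ libraries. Among the 2 B cell genes measured 1 was called higher (1.73 to 25.9 and 7.69 to 13.9 CPM), and of 6 dendritic cell genes 4 were (66.3 to 205.5 and 882.1 to 3704 CPM). Most of the dendritic cell sums came from *H2-Aa* and *Itgax*, with mean CPM of 105.8 and 16.7 in Gal1- and 1745 and 391.2 in Gal1+ cells. *Flt3* and *Xcr1* were not called, and *Flt3* averaged a log2 CPM of 1.87 in Gal1- and 1.57 in Gal1+ cells. All 10 endothelial genes and 7 of 8 pericyte and fibroblast genes were called higher as well, with summed CPM of 42.2 to 90.8 and 46.6 to 163.3 in Gal1- and 316.2 to 404.8 and 203.7 to 459.4 in Gal1+ libraries. The 7 oligodendrocyte progenitor genes were all called lower (5235 to 6448 and 652.1 to 1948 CPM), as were 6 of 7 oligodendrocyte genes. Called lower too were 2 of 6 astrocyte and 3 of 7 neuron genes. Over all genes, 28.9% were called higher and 29.3% lower in this comparison. Beside those shares, the T and NK cell, B cell, astrocyte and neuron counts do not set these genes apart from genes at large. The part of these cell types in the receptor values was not tested.

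For each receptor, the genes whose profile over the 12 libraries was most like its own were found as those with the smallest root-mean-square difference in log2 CPM after each gene was centred on its own mean, among 12976 genes. *Ccr1* was followed most closely by *Il2rg* (0.18), the common cytokine receptor gamma chain, *Ptprc* (0.19) and *Csf2rb* (0.19). *Cxcr4* was nearest to *Elf4* (0.18), *Tnfrsf1b* (0.19), a TNF receptor, and *Fgr* (0.19), a Src family kinase of myeloid cells. *Cx3cr1* was nearest to *Cd180* (0.19), *Gal3st4* (0.26) and *Rnase4* (0.36), and *Ccr2* to *Ch25h* (0.36), *Ifi203* (0.36) and *Gpr141* (0.38). The nearest genes of the last 2 receptors were of another kind: *Dnajb1* (0.32), a heat shock cochaperone, *Snord17* (0.35) and *Dedd2* (0.38) for *Cxcr2*, and *Ctsf* (0.21), *Slc30a1* (0.24) and *Aig1* (0.27) for *Ackr3*. Among the receptors themselves, *Ccr1* and *Cxcr4* were the closest pair (0.25), and *Cxcr2* and *Cx3cr1* the most distant (1.89). These values describe 12 libraries that share 3 tumors.

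Of 17 other chemokine receptor genes looked up, 7 had a row, and 5 of them were called higher and none lower in Gal1+ over Gal1- cells. Of these 7, *Ccrl2*, a non-signalling receptor that presents chemerin, rose most, by 4.59 on the log2 scale (adjusted p = 3.93e-05), from a log2 CPM of 3.19 ± 0.57 in Gal1- to 7.79 ± 0.24 in Gal1+ cells (SD, n = 3). Smaller rises were found for *Cxcr5* (2.41, adjusted p = 0.000817), *Ackr2* (2.22, adjusted p = 0.00533), *Ccr6* (2.12, adjusted p = 0.0141) and *Ccr7* (0.95, adjusted p = 0.0297), receptors known, in that order, from B cells, lymphatic endothelium, lymphocytes and dendritic cells. Among them, *Ackr2* had 1 to 4 reads in the libraries of T5 and *Cxcr5* had 3 reads in T3 Gal1- cells. *Cxcr6* (0.61, adjusted p = 0.249) and *Xcr1* (0.64, adjusted p = 0.382) did not pass. In PDGFR+ over PDGFR- cells 0 of the 7 were called.

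Ligands of the receptors were measured in the same libraries. All 5 *Ccr1* ligands were called higher in Gal1+ than in Gal1- cells, with log2 fold changes of 5.51 for *Ccl6*, 5.50 for *Ccl9*, 3.68 for *Ccl3*, 3.10 for *Ccl5* and 1.70 for *Ccl7*. The *Ccr2* ligands *Ccl12* and *Ccl2* rose by 6.33 and 1.56, beside *Ccl7*, which *Ccr1* also binds. All 3 measured *Cxcr2* ligands rose as well, *Cxcl3* by 3.84, *Cxcl2* by 3.63 and *Cxcl1* by 2.06. *Cxcl12*, which *Cxcr4* and *Ackr3* share, averaged a log2 CPM of 0.73 ± 0.66 across tumors in Gal1- and 2.41 ± 0.61 in Gal1+ cells (SD, n = 3) (log2 fold change 1.67, adjusted p = 0.00625), and *Cxcl11*, the other *Ackr3* ligand, rose by 4.12. *Cx3cl1*, the only ligand of *Cx3cr1* and a membrane-bound chemokine of neurons, went the other way.

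*Cx3cl1* was at a log2 CPM of 5.39, 5.19 and 5.72 in Gal1- cells of T3, T4 and T5, 5.42, 4.92 and 5.61 in PDGFR+ cells, 5.16, 4.45 and 3.53 in PDGFR- cells, and 4.38, 3.10 and 4.18 in Gal1+ cells. Its Gal1+ libraries lay below its Gal1- libraries without overlap (log2 fold change −1.55, SE 0.37, adjusted p = 0.00519), and PDGFR+ exceeded Gal1+ cells (1.43, adjusted p = 0.0148). Thus the ligand was highest in the populations richest in oligodendrocyte progenitor transcripts, and its receptor *Cx3cr1* was lowest in Gal1- cells.

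Of 30 genes of chemokine receptor signalling, 29 had a row, 20 were called higher and 1 lower in Gal1+ over Gal1- cells, and none was called in PDGFR+ over PDGFR- cells. The 3 largest rises were those of *Vav1*, an exchange factor for small GTPases (4.82), *Rgs1*, which ends Gi signalling (4.42), and *Was*, the Wiskott-Aldrich regulator of actin (4.41). The 3 smallest values were −0.97 for *Grk5*, a receptor kinase and the gene called lower (adjusted p = 0.000726), −0.18 for the G protein subunit *Gnb2* (adjusted p = 0.115) and −0.15 for *Grk6* (adjusted p = 0.36). The median of the list was 1.25, compared with −0.03 over all genes. *Rac2* of this list also belongs to the 12 pan-leukocyte genes, and the part of leukocytes in these values was not tested. Against Gal1+ cells, 18 of the 29 fell and 1 rose in PDGFR+ cells.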

How the data were processed

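RNA of sorted EGFR+ cells (4 populations of 3 tumors) was sequenced from a stranded total RNA kit. The authors trimmed reads with fastp, aligned them with STAR to mm39, counted exonic reads with featureCounts (multi-mapping reads as fractions), kept genes above 1 CPM in at least 3 samples, normalised by TMM and applied voom. Tool versions and the strand setting are not given in the sources used here. The deposited values are log2 CPM with an offset of 0.5 reads. Reads were recovered by taking the lowest value of a library as 0 reads, and intervals and floors from them cover counting error only.

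Populations and tumors came from the sample labels. A linear model with the tumor as a block, as in the study's methods, was fitted to all 12 libraries and 18180 genes with limma 3.58.1 in R 4.3.3 (trend, two-sided, 6 residual and 3.49 prior degrees of freedom). Tumor numbers mark a shared tumor. Deviations from the population means correlated by 0.486 on average within tumors (18 pairs, 0.14 to 0.662) and −0.243 between them. Because each population was centred on the mean of its 3 tumors, the value between tumors is not independent of that within them. Alternatives were no block, the groups compared alone, eBayes without trend or robust, vooma or voom weights, log2(CPM + 1), a filter at log2 CPM above 1, quantile or median scaling, a fold change above 1.5, and leaving out each tumor.

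The members and lists were chosen with earlier results of these data known. Named genes were the 6 receptors, the other chemokine receptors and ligands listed, the 3 largest and 3 smallest Gal1 differences of the signalling list, 3 genes nearest to each receptor (mean log2 CPM of at least 1, predicted genes left out), and *Pdgfra*, *Lgals1* and *Ptprc*, with some markers chosen after their values were seen. A receptor was left out of a marker list set beside it, and some genes are not reported here. Promoters came from RefSeq. Figures were drawn with matplotlib 3.10.9.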

Additional observations from a re-analysis of the deposited data

Results flagged for a closer look

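For 5 receptors the difference between positive and negative cells was not the same in both sorts, by a test of the difference itself: the Gal1 sort value minus the PDGFR sort value was 4.72 for *Ccr1*, 5.88 for *Ccr2*, 2.38 for *Cxcr2*, 4.22 for *Cxcr4* and 5.33 for *Cx3cr1* on the log2 scale, above 0 in 3 of 3 tumors each. The sorts ran in opposite directions for *Pdgfra*, at −2.97 in Gal1+ over Gal1- and 1.60 in PDGFR+ over PDGFR- cells. A PDGFR sort value below 0 therefore adds to the difference between the sorts. *Ptprc* had a value of 4.59 in the same test (adjusted p = 0.000296, limma), and the part of leukocytes in the receptor values was not tested. *Cxcr2* was not called in this test without the tumor block (adjusted p = 0.0935, from 0.000683 over the alternatives).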

How the results depend on the processing

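In Gal1+ over Gal1- cells the 6 receptors were called under each alternative tried except the fit with no replicate block, which lost *Cxcr2*, and 0 were called in PDGFR+ over PDGFR- cells under each. In the fit without pairing by tumor (no replicate block), 1 receptor was called in PDGFR+ over Gal1+, 0 in PDGFR- over Gal1+ and 1 in PDGFR+ over Gal1- cells. Over all genes, that fit called 3154, 725 and 612, in the same order. In PDGFR- over Gal1+ cells 0 receptors were called in the fit to those groups alone, 1 without a trend and 4 without the PDGFR- library of T5. Those fits called 1893, 2693 and 5837 of all genes. Leaving out each tumor gave 0 to 5 receptors in PDGFR+ over Gal1+, 0 to 2 in PDGFR- over Gal1+, 0 to 4 in PDGFR+ over Gal1- and 3 to 4 in PDGFR- over Gal1- cells, with fewer samples in each fit. Over all genes, 2110 to 4863, 0 to 3647, 0 to 1126 and 920 to 3287 were called, in that order. Signs reversed for *Cx3cr1* in PDGFR+ over PDGFR- (−0.935 without T4, up to 0.925 without T5), *Cxcr2* in PDGFR+ over Gal1- (−0.0263 without T4, up to 0.681 without T3) and *Ackr3* in PDGFR- over Gal1- cells (−0.103 after quantile normalization, −0.11 without T3, up to 0.357 without T4). None of these was called, and the cause was not tested. Of the receptors' values under alternatives, 514 kept direction and side of the threshold, 40 were weaker, 6 stronger and 4 reversed. Quantile and median scaling moved the median of all genes by at most −0.16 on the log2 scale, in PDGFR+ over Gal1+ cells. With 17.6 reads in its lowest library, *Cxcr2* was limited most by depth.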
